A study of Mus musculus with 24 samples.

Results

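Transcription factors that set the fate of monocytes were followed as a group of 10 genes in splenic monocytes of mice: Nr4a1, Cebpa, Cebpb, Cebpe, Gfi1, Klf2, Klf4, Irf8, Spi1, and Pou2f2. They were chosen by name, as factors with textbook roles in the monocyte and granulocyte lineages, with earlier results of these data known. Counts of calls among them beside those of all genes are therefore a description and not a test. All 10 were found among the 23930 amplicons of the table. A committed myeloid progenitor becomes a monocyte or a neutrophil under opposing factors. Spi1 (PU.1) opens the myeloid program, Cebpa drives granulocyte and monocyte progenitors, Gfi1 and then Cebpe carry neutrophil precursors through the granule protein stages, and Irf8 and Klf4 hold cells on the monocyte and dendritic cell side. Monocytes leave the marrow as Ly6Chi cells and mature into Ly6Clow cells, a step that depends on Nr4a1 and Cebpb. Klf2 keeps myeloid cells quiescent, and Pou2f2 (Oct2) is an octamer-binding factor best known from B cells.

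The groups were WT mice, Slc29a3-/- mice, which lack a lysosomal nucleoside transporter, and Slc29a3-/- Tlr7-/- mice, which also lack the endosomal RNA sensor TLR7. All were untreated C57BL/6 mice of an age not given in the sources used here. The mutants carry germline alleles made by CRISPR/Cas9, and the WT mice came from a commercial supplier. From the spleen of each, CD11b+ Ly6G- NK1.1- cells were sorted into Ly6Chi and Ly6Clow cells, called macrophages in the sample descriptions and monocytes in the study. Each of the 6 groups had 4 libraries (24 in all), made by amplifying 1 short stretch of each gene. Values are RPM, reads of an amplicon per 1000000 reads of the library. Amplicons differ in how well they amplify, so levels were compared between libraries and never between genes.

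The number of reads per library, inferred from the even step between low values, was 12.3–14.6 M (M, 1000000 reads), so that 3 reads stood at 0.206–0.244 RPM. The amplicons of the targeted genes did not check the genotypes. Slc29a3 stood at 163.2–224.7 RPM in Ly6Chi WT and 126.6–173.5 RPM in Ly6Chi Slc29a3-/- libraries, and Tlr7 was at 258.6–344.5 RPM in Ly6Chi Slc29a3-/- Tlr7-/- libraries. Where either amplicon lies relative to its edit is not given in the sources used here. The sort held on independent markers: all 6 measured genes of the Ly6Chi monocyte list were lower in Ly6Clow than in Ly6Chi monocytes of each genotype, and 8 or 9 of the 9 measured Ly6Clow monocyte genes were higher. Ly6Chi libraries also held neutrophil, granulocyte precursor, dendritic cell, T cell, and NK cell transcripts, whose levels are given beside the factors they moved with. In bulk RNA, fewer cells of a type and less RNA per cell cannot be told apart. Sex-linked reads, given below, differed within each group, so a group did not come from a single mouse. Nothing says that each library came from its own mouse, so P values measure the spread between these libraries.

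The 4 WT libraries of each subset were not alike. Replicates 1 to 3 carried neighboring barcodes (numbers 11 to 16 over the subsets) and had 14.2–14.6 M reads, more than any other library. The summed level of 10 immediate early genes, which many stimuli induce within minutes, was 15050–15170 RPM in Ly6Chi WT replicates 1 to 3 and 1261 RPM in replicate 4. It was 656–949 RPM in Ly6Chi Slc29a3-/- and 1210–2973 RPM in Ly6Chi Slc29a3-/- Tlr7-/- libraries. In Ly6Clow WT monocytes the sums were 10230–15270 RPM in replicates 1 to 3 and 1311 RPM in replicate 4, against 1330–1536 in Slc29a3-/- and 1115–3458 RPM in Slc29a3-/- Tlr7-/-. WT replicate 4 was also the only WT library with reads of the Y-linked gene Ddx3y (97.0 RPM in Ly6Chi) and none of Xist, the transcript of the inactive X chromosome. Replicate 1 of both mutants in both subsets and Ly6Clow Slc29a3-/- Tlr7-/- replicate 3 likewise held Y-linked reads and less than 1 RPM of Xist. Replicate 2 of Slc29a3-/- Tlr7-/- in both subsets and replicate 3 in Ly6Chi held both Xist and Y-linked reads. The comparisons with WT were therefore also made with replicates 1 to 3 averaged as 1 library and with replicate 4 as the only WT library. With replicate 4 alone, that library is assumed to vary like the other groups.

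Several of the 10 factors moved with these WT libraries. In Ly6Chi monocytes the mean of WT replicates 1 to 3 was 4.38 times replicate 4 for Nr4a1, 3.72 times for Klf4, 2.03 times for Klf2, and 2.01 times for Cebpb. For Cebpa it was 1.58 times. The ratios of Cebpe (1.25), Irf8 (1.13), Gfi1 (0.998), Spi1 (0.931), and Pou2f2 (0.817) were nearer to 1. In Ly6Clow monocytes the ratio was 3.84 for Cebpb, 3.45 for Nr4a1, 2.55 for Klf2, and 1.90 for Klf4, whereas that of Irf8 was 0.550 and that of Pou2f2 was 0.501.

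Promoter sequence is shown for 3 of the 4 members with the highest Ly6Chi ratios, because their windows share a short motif. The RefSeq table (GRCm38.p6, the assembly of mm10) held windows for 8 of the 10 members, 10 windows in all, each the 250 bases before a transcription start, and Spi1 and Cebpe had none. TGACG, the core of the element bound by CREB and ATF factors, or its complement CGTCA was in the windows of 4 members (Nr4a1, Cebpb, Klf2, and Klf4), against 17.8% of all 32851 windows. The 7-base form TGCGTCA (complement TGACGCA), which contains CGTCA, was in 1.75% of all windows. It occurred 4 times in the Nr4a1 window, the single window of 32851 with 4 or more. The capitals mark TGACG and CGTCA, and each sequence is written 5′ to 3′ on the strand of the gene.
Nr4a1 (chr15:101266596-101266845, plus strand): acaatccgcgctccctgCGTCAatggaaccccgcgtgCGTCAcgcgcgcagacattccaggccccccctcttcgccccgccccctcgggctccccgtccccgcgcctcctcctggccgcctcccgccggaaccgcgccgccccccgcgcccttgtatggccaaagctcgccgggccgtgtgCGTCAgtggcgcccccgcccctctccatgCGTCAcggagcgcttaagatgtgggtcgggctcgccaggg
Cebpb (chr2:167688665-167688914, plus strand): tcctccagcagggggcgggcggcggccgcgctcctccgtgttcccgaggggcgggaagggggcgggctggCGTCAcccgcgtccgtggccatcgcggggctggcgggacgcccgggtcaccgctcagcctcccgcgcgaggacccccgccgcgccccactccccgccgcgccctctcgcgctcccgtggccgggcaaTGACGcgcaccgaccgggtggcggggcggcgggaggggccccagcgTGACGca
Klf4 (chr4:55532476-55532725, minus strand): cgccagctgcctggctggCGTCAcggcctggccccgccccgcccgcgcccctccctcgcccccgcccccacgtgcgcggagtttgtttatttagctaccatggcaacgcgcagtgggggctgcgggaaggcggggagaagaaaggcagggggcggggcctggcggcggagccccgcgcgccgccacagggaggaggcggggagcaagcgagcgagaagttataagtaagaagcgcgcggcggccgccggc
The Nr4a1 window holds TGACG or its complement 4 times, each within the 7-base form, and lies inside the annotated gene, outside every exon. The Cebpb window has 3 matches, 1 of them in the 7-base form, and directly precedes the single-exon gene. The Klf4 window has 1 match, as has that of Klf2. The windows of Cebpa, Gfi1, Irf8, and Pou2f2 have none. A match is a stretch of letters and was not tested as a binding site.

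In Ly6Chi monocytes, 7 of the 10 factors differed between Slc29a3-/- and WT by the study's fold threshold of 1.5 with an adjusted P under 0.05 (limma on log2 values, adjusted over all genes tested). The neutrophil factors Gfi1 and Cebpe were higher, and Nr4a1, Klf4, Irf8, Klf2, and Cebpa were lower. Of all 10561 genes tested in this comparison, 22.4% were called, 8.15% higher and 14.3% lower. The median change of the 10 factors was −0.91 on the log2 scale, against −0.14 over all genes. With TMM scaling the median of all genes was 0.02 and the same 7 factors were called, but the split of all calls went from 861 higher and 1507 lower to 1305 higher and 1053 lower. Slc29a3-/- Tlr7-/- was compared with the same WT libraries, and none of the 10 factors was called, with 1.42% of all genes called. With WT replicates 1 to 3 averaged, 0 of all 10320 genes were called, so that fit says nothing of the factors in particular. In the main fit limma gave an unadjusted P under 0.05 and a fold over 1.5 for 2 of the 10 factors, Klf2 and Klf4, as for 12.6% of all genes. Slc29a3-/- differed from Slc29a3-/- Tlr7-/- in 4 factors: Gfi1 and Cebpe were higher and Irf8 and Cebpa were lower, with 17.2% of all genes called.

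**Figure D1:**
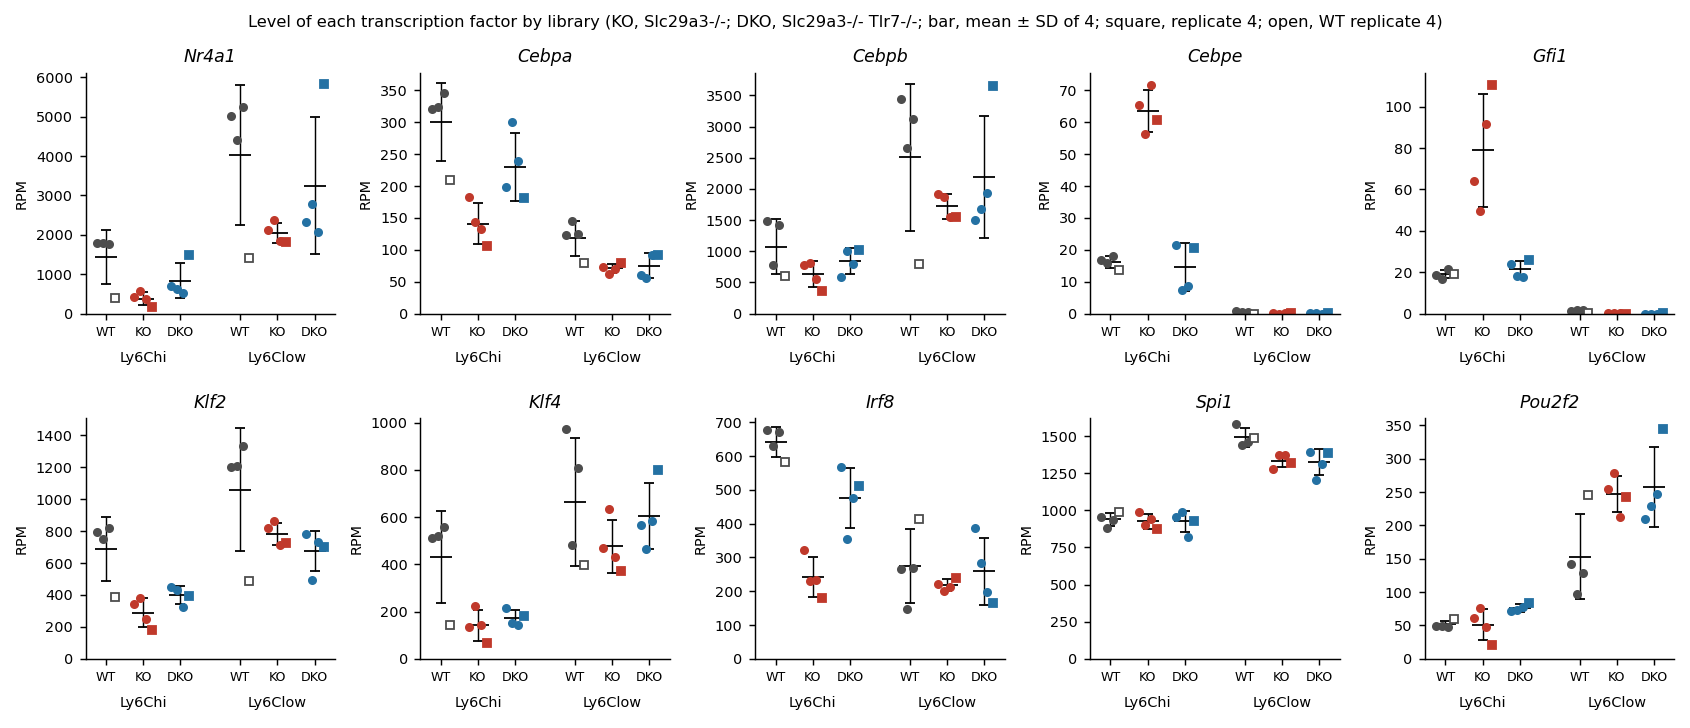
RPM of the 10 transcription factors (vertical axes, linear, starting at 0) in each library of the 6 groups, with the mean ± SD of 4 libraries. KO is Slc29a3-/- and DKO is Slc29a3-/- Tlr7-/-. The 4 Ly6Chi Slc29a3-/- libraries are above all others for Cebpe (56.3–71.8 RPM) and Gfi1 (49.6–110.6 RPM), and WT replicate 4 (open square) lies apart from WT replicates 1 to 3 for Nr4a1, Klf2, and Klf4 in Ly6Chi monocytes.

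Gfi1 encodes a zinc finger repressor that turns down monocyte genes in neutrophil precursors. Ly6Chi WT libraries held 16.7, 18.8, 19.1, and 21.7 RPM of Gfi1. Ly6Chi Slc29a3-/- libraries held 49.6, 64.1, 91.7, and 110.6 RPM. Ly6Chi Slc29a3-/- Tlr7-/- libraries held 17.6, 18.2, 24.2, and 25.9 RPM. All 4 Slc29a3-/- libraries were above all 8 of the other Ly6Chi libraries, which overlapped each other. The difference from WT was 1.93 (SE 0.22, adjusted P = 0.00013) on the log2(RPM + 1) scale, a 3.82-fold change, and from Slc29a3-/- Tlr7-/- it was 1.78 (adjusted P = 0.00015). It was the 1 factor that kept its call when WT was replicate 4 alone (1.93, adjusted P = 0.033), and it was called with WT replicates 1 to 3 averaged (1.93, adjusted P = 0.0055). Replicate 4 of Slc29a3-/- was highest.

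Cebpe encodes the C/EBP member needed for secondary granule genes and terminal granulopoiesis. It stood at 13.6, 15.96, 16.9, and 18.1 RPM in Ly6Chi WT libraries. In Ly6Chi Slc29a3-/- libraries it was at 56.3, 60.6, 65.4, and 71.8 RPM. The Slc29a3-/- Tlr7-/- libraries split into 7.47 and 8.55 RPM (replicates 2 and 3) and 20.6 and 21.4 RPM (replicates 4 and 1). None of these 8 reached the lowest Slc29a3-/- library. Cebpe was 1.92 higher than in WT (SE 0.28, adjusted P = 0.00042), or 3.77-fold, and 2.19 higher than in Slc29a3-/- Tlr7-/- (adjusted P = 0.00016). Against WT replicate 4 alone the difference was 2.14 and the adjusted P was 0.052, and with WT replicates 1 to 3 averaged they were 1.99 and 0.01.

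Most neutrophil granule genes that were listed were also higher in the same libraries. Whether Gfi1 or Cebpe acted on them was not tested. Of 6 secondary granule genes, the classic targets of Cebpe, 5 were higher in Ly6Chi Slc29a3-/- than in WT and in Slc29a3-/- Tlr7-/- monocytes. They include Ngp (WT 13570 RPM, Slc29a3-/- 38070 RPM, and Slc29a3-/- Tlr7-/- 9652 RPM), Camp (1902, 7060, and 1682 RPM), Lcn2 (1220, 4446, and 864 RPM), and Ltf (1534, 5306, and 1005 RPM). The collagenase gene Mmp8, named after its values were seen, was lower at 129.7 RPM against 279.1 RPM in WT. All 5 primary granule genes, which are made at an earlier precursor stage, were higher in both comparisons. Elane, the neutrophil elastase gene, went from 88.6 RPM in WT to 484 RPM, with a change of 2.31 (adjusted P = 0.00034), and was at 169 RPM in Slc29a3-/- Tlr7-/-. Prtn3 rose by 2.18 (adjusted P = 0.0006) and Ctsg by 2.28 (adjusted P = 0.0013) over WT.

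Neutrophil markers moved with Gfi1 and Cebpe. The summed level of 11 neutrophil genes was 25450–34510 RPM in Ly6Chi WT, 77860–143500 in Slc29a3-/-, and 14120–41270 RPM in Slc29a3-/- Tlr7-/- libraries. In Slc29a3-/-, 8 of the 11 were higher than in WT and 2 were lower. Ly6g, the antigen used to remove neutrophils, spanned 17.9–33.5 RPM among WT, 59.2–138.5 RPM among Slc29a3-/-, and 2.77–39.8 RPM among Slc29a3-/- Tlr7-/- libraries. The list shares Ngp, Camp, Ltf, Lcn2, Cd177, and Mmp8 with the secondary granule list. None of the 11 was at 0 in all 4 libraries of a Ly6Chi group. The part of neutrophils or their precursors in the levels of Gfi1 and Cebpe was not tested.

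**Figure D2:**
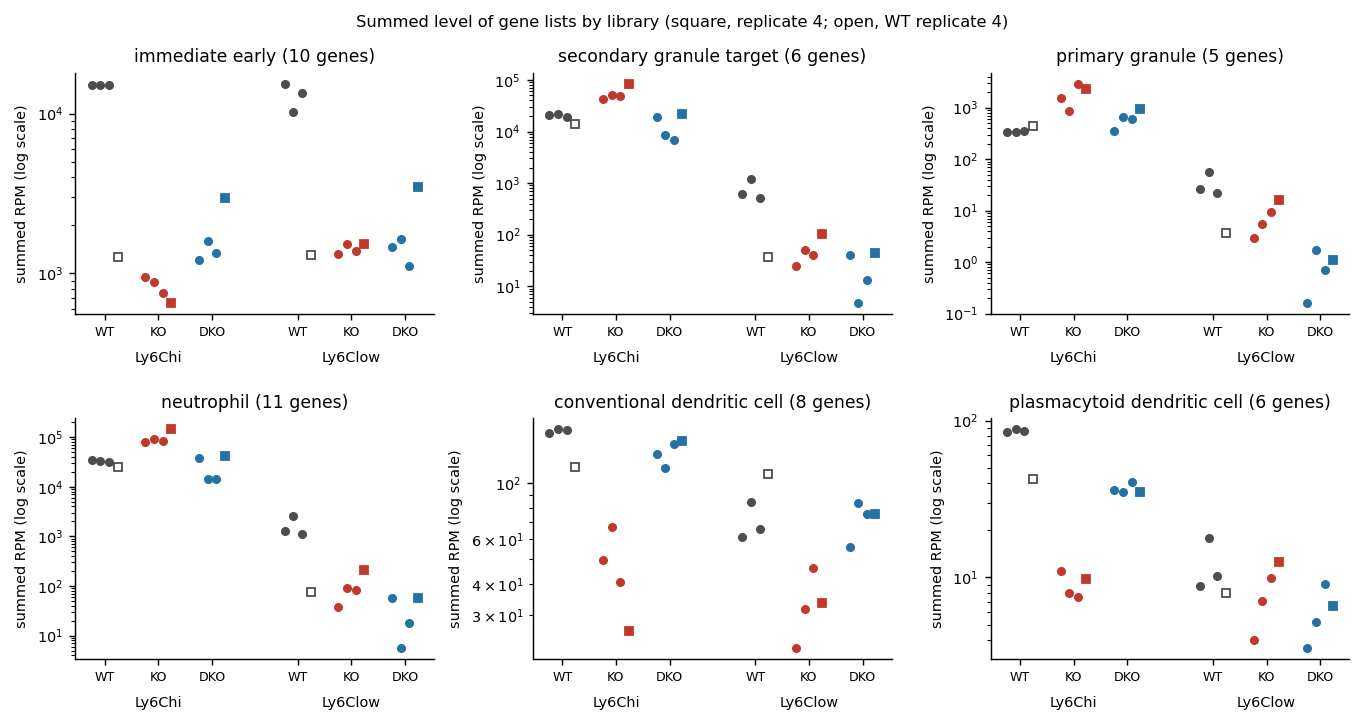
Summed RPM of 6 gene lists (vertical axes, log scale) in each library of the 6 groups, with squares for replicate 4 and an open square for WT replicate 4. Immediate early genes are at 15050–15170 RPM in Ly6Chi WT replicates 1 to 3 and 1261 RPM in replicate 4, secondary granule genes are highest in Ly6Chi Slc29a3-/- (43430–82920 RPM), and both dendritic cell lists are lowest among Ly6Chi libraries in Slc29a3-/-.

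Irf8 encodes the interferon regulatory factor that sustains monocyte and dendritic cell precursors and restrains granulocyte output. Ly6Chi WT libraries held 581.7, 630.0, 672.2, and 677.0 RPM of Irf8. Ly6Chi Slc29a3-/- libraries held 178.9, 231.0, 232.6, and 322.6 RPM. Ly6Chi Slc29a3-/- Tlr7-/- libraries held 354.9, 475.0, 510.2, and 566.1 RPM. The 3 genotypes did not overlap, with WT highest and Slc29a3-/- lowest. Irf8 fell by 1.43 from WT to Slc29a3-/- (SE 0.18, adjusted P = 0.00016), 2.70-fold, and the difference of Slc29a3-/- from Slc29a3-/- Tlr7-/- was −0.99 (adjusted P = 0.0014). The difference of Slc29a3-/- Tlr7-/- from WT was −0.44 (adjusted P = 0.15). Against WT replicate 4 alone the Slc29a3-/- value was −1.30 (adjusted P = 0.061), and with WT replicates 1 to 3 averaged it was −1.39 (adjusted P = 0.007).

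Dendritic cell markers moved with Irf8. The sum of 8 conventional dendritic cell genes was 115.8–163.1 RPM in Ly6Chi WT (lowest in replicate 4), 26.1–67.0 in Slc29a3-/-, and 114.5–146.0 RPM in Slc29a3-/- Tlr7-/- libraries. All 7 that were tested were lower in Slc29a3-/- than in WT, with Clec9a falling from 35.8 to 4.15 RPM, against 29.1 RPM in Slc29a3-/- Tlr7-/-. Against Slc29a3-/- Tlr7-/-, 5 of the 7 were lower. The sum of 6 plasmacytoid dendritic cell genes was 84.9–88.1 RPM in WT replicates 1 to 3 and 42.7 RPM in WT replicate 4. It was 7.53–10.99 RPM in Slc29a3-/- and 35.1–40.9 RPM with Tlr7 also lost. All 5 tested were lower in Slc29a3-/- than in WT, Siglech falling by 3.27 (adjusted P = 4.4e-05), and 4 were lower than in Slc29a3-/- Tlr7-/-. In Slc29a3-/- Tlr7-/-, 2 of the 5 were also called lower than in WT. None of the markers was at 0 in all 4 libraries of a Ly6Chi group, and the part of dendritic cells in the level of Irf8 was not tested.

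Cebpa, the first C/EBP member of the myeloid progenitor, was at 209.7, 320.0, 324.2, and 346.3 RPM in Ly6Chi WT libraries. It was at 105.6, 132.7, 143.3, and 183.4 in Slc29a3-/- and at 180.8, 197.8, 238.7, and 300.9 RPM in Slc29a3-/- Tlr7-/-. All Slc29a3-/- libraries were below WT, and the highest overlapped the lowest of Slc29a3-/- Tlr7-/- by a narrow margin. Cebpa fell by 1.08 from WT (SE 0.20, adjusted P = 0.0019), 2.12-fold, and the call remained with WT replicates 1 to 3 averaged (−0.92, adjusted P = 0.048) but not with replicate 4 alone (−0.59). The difference from Slc29a3-/- Tlr7-/- was −0.70 (adjusted P = 0.026). It lost its call when Slc29a3-/- replicate 3 or 4 or Slc29a3-/- Tlr7-/- replicate 2 or 3 was left out (adjusted P up to 0.093), with TMM scaling, and with no filter on low values (adjusted P = 0.066). Slc29a3-/- Tlr7-/- was not called against WT (−0.39, adjusted P = 0.27).

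Cebpb, a C/EBP member induced by inflammation and required for Ly6Clow monocytes, was at 610.2, 778.2, 1419, and 1490 RPM in Ly6Chi WT libraries. It was at 366.5–810.8 in Slc29a3-/- and 582.2–1014 RPM in Slc29a3-/- Tlr7-/-. The 3 ranges overlapped. The difference of Slc29a3-/- from WT was −0.74 (SE 0.31, adjusted P = 0.089), and it passed when WT replicate 4 was left out (−0.97, adjusted P = 0.025) and at the unadjusted P of 0.031. With WT replicates 1 to 3 averaged it was −0.53, and against replicate 4 alone it was −0.02.

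Nr4a1 encodes an orphan nuclear receptor that is itself an immediate early gene and is required for the survival of Ly6Clow monocytes. Ly6Chi WT libraries held 408.6 RPM in replicate 4 and 1765, 1797, and 1804 RPM in the others. Slc29a3-/- libraries held 163.9, 361.2, 421.4, and 578.6 RPM. Slc29a3-/- Tlr7-/- libraries held 528.0, 637.1, 702.7, and 1492 RPM. WT replicate 4 lay within the Slc29a3-/- range, and the 3 other WT libraries were above every library of the mutant groups. The difference of Slc29a3-/- from WT was −1.83 (SE 0.48, adjusted P = 0.012), a 3.56-fold change, and −2.36 (adjusted P = 0.00051) without WT replicate 4. It was −1.30 (adjusted P = 0.18) with WT replicates 1 to 3 averaged and −0.24 against WT replicate 4 alone. Between the mutant groups it was −1.15 (adjusted P = 0.1).

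Klf4, a zinc finger factor that drives monocyte differentiation, followed the same libraries. It was at 142.2 RPM in Ly6Chi WT replicate 4 and at 511.5, 518.5, and 556.7 RPM in the others. Slc29a3-/- libraries held 66.9, 132.8, 144.0, and 224.2 RPM, and Slc29a3-/- Tlr7-/- libraries held 145.3, 153.4, 183.4, and 214.0 RPM. Both mutant groups were below WT replicates 1 to 3. Slc29a3-/- lay on either side of replicate 4, and Slc29a3-/- Tlr7-/- lay just above it. The difference of Slc29a3-/- from WT was −1.54 (SE 0.40, adjusted P = 0.011), a 2.91-fold change. It was −1.07 (adjusted P = 0.18) with WT replicates 1 to 3 averaged and −0.13 against replicate 4 alone. In Slc29a3-/- Tlr7-/- it was −1.14 (adjusted P = 0.12).

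Klf2 was at 388.7 RPM in Ly6Chi WT replicate 4 and at 747.8, 797.2, and 818.6 RPM in the others. Slc29a3-/- libraries held 179.0, 251.4, 344.7, and 380.2 RPM, and Slc29a3-/- Tlr7-/- libraries held 323.7, 396.4, 433.8, and 448.1 RPM. Unlike Nr4a1 and Klf4, all 4 Slc29a3-/- values were below WT replicate 4, the highest by a narrow margin. The difference of Slc29a3-/- from WT was −1.25 (SE 0.25, adjusted P = 0.0029). It was not called with WT replicates 1 to 3 averaged (adjusted P = 0.069) and was −0.49 against replicate 4 alone, and in Slc29a3-/- Tlr7-/- it was −0.73 (adjusted P = 0.12). When WT replicate 4 was left out, Klf2 and Klf4 were called lower in Slc29a3-/- Tlr7-/- too (adjusted P of 0.012 and 0.0035). Of all 10508 genes in that fit, 327 were called higher and 713 lower.

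The immediate early genes moved with Nr4a1, Klf4, and Klf2. In Ly6Chi monocytes 9 of 10 were called lower in Slc29a3-/- than in WT, with a median change of −4.16, as were 14.3% of all genes. None of the 10 was at 0 in all 4 libraries of a group. The WT means average over unlike libraries, with a sum of 15050–15170 RPM in replicates 1 to 3 and 1261 RPM in replicate 4. In Slc29a3-/- the sum was 656–949 RPM. In the order WT, Slc29a3-/-, and Slc29a3-/- Tlr7-/-, Fos had means of 2931, 66.8, and 269.5 RPM and Egr1 of 376, 6.66, and 16.6 RPM. Between Slc29a3-/- and Slc29a3-/- Tlr7-/- none of the 10 was called. In the same comparison Nr4a1, Klf4, and Klf2 were not called either. The part of this program in the levels of the 3 factors was not tested.

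**Figure D3:**
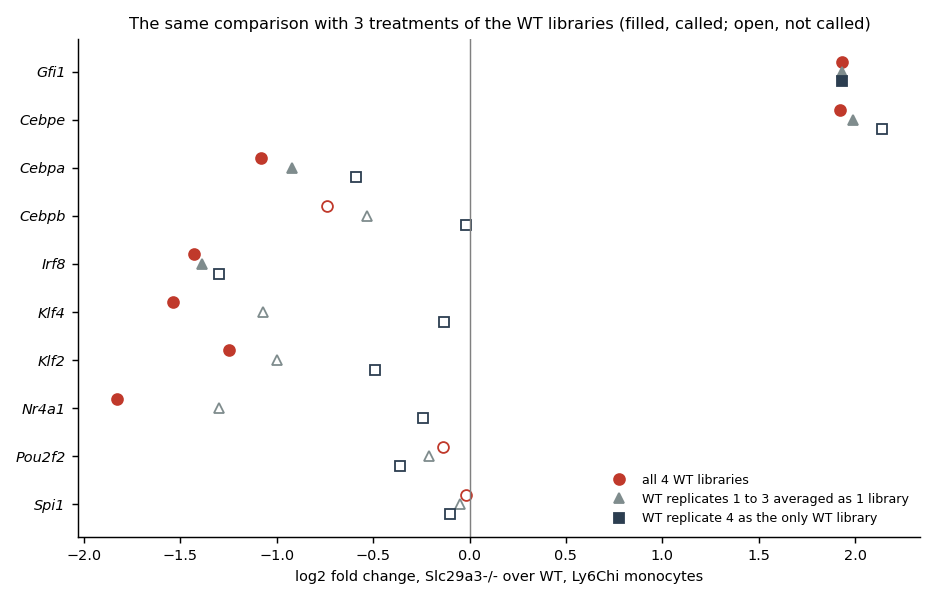
Log2 fold change of each factor between Ly6Chi Slc29a3-/- and WT monocytes (horizontal axis) with all 4 WT libraries, with WT replicates 1 to 3 averaged as 1 library, and with replicate 4 standing alone for WT. Gfi1, Cebpe, and Irf8 stay near one value, whereas Nr4a1 goes from −1.83 to −0.24 and Klf4 from −1.54 to −0.13.

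Spi1 and Pou2f2 did not pass between Slc29a3-/- and WT. Spi1 was at 880.6–990.6 RPM in Ly6Chi WT, 874.7–989.4 in Slc29a3-/-, and 823.8–990.3 RPM in Slc29a3-/- Tlr7-/- libraries. The 3 ranges overlapped almost entirely, and the 3 fitted differences lay between −0.02 and 0.00 with a standard error of 0.11. Pou2f2 was at 47.8, 49.3, 49.6, and 59.8 RPM in WT, at 21.0, 47.8, 60.9, and 75.8 in Slc29a3-/-, and at 72.2, 72.5, 77.0, and 84.4 RPM in Slc29a3-/- Tlr7-/-. The Slc29a3-/- Tlr7-/- libraries were above all WT libraries, with a difference of 0.56 (adjusted P = 0.24), and Slc29a3-/- libraries spanned the whole WT range. Replicate 4 of Ly6Chi Slc29a3-/- had the lowest Nr4a1, Klf4, Klf2, Irf8, Cebpa, Cebpb, and Pou2f2 of all Ly6Chi libraries, the highest Gfi1, and the highest secondary granule sum (82920 RPM). The 7 calls against WT remained without it.

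**Figure D4:**
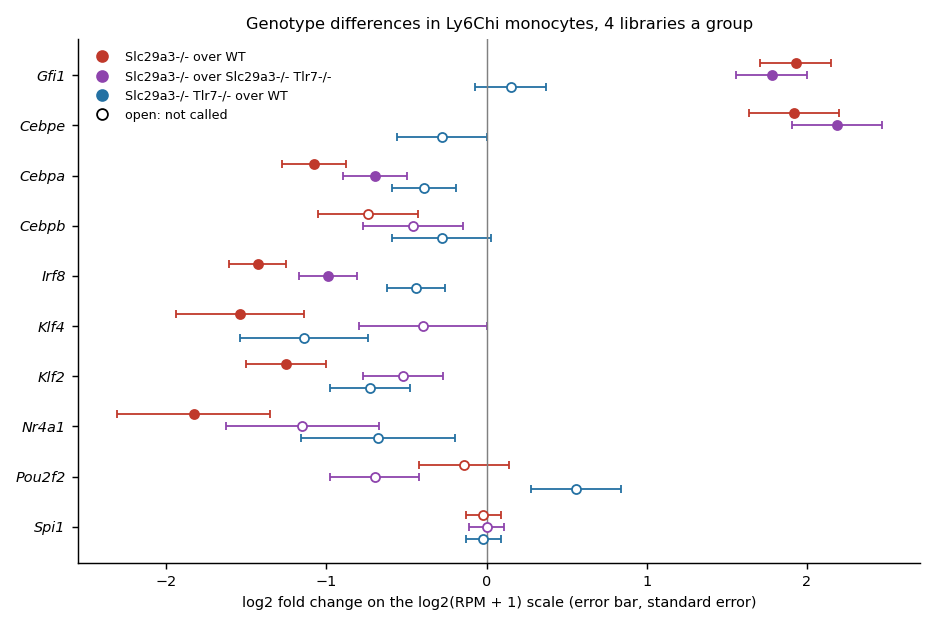
Log2 fold change with its standard error (horizontal axis) of each factor in the 3 genotype comparisons of Ly6Chi monocytes, 4 libraries a group, with filled points for calls. Gfi1 and Cebpe lie near 2 in both comparisons of Slc29a3-/- and near 0 between Slc29a3-/- Tlr7-/- and WT, and Spi1 is near 0 in all.

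In Ly6Clow monocytes, 8 factors had enough reads to test and none was called in any of the 3 genotype comparisons. The share of all 10317 genes called was 4.43% for Slc29a3-/- and 8.31% for Slc29a3-/- Tlr7-/- against the same WT libraries, and 1.93% between the mutants. At an unadjusted P under 0.05 limma passed 2, 2, and 0 of the 8, Cebpa and Pou2f2 in each comparison with WT, against 13.2%, 20.7%, and 13.7% of all genes. Pou2f2 was at 96.5, 129.4, and 142.2 RPM in WT replicates 2, 3, and 1 and at 245.1 RPM in replicate 4. It was at 212.1–278.3 in Slc29a3-/- and 210.1–344.2 RPM in Slc29a3-/- Tlr7-/-. Its differences from WT were 0.76 (adjusted P = 0.084) and 0.80 (adjusted P = 0.051), and the mutant groups were above WT replicates 1 to 3 and around replicate 4. The sum of 6 B cell genes, a cell type that expresses Pou2f2, spanned 33.4–42.1, 37.1–60.3, and 16.3–32.9 RPM over the WT, Slc29a3-/-, and Slc29a3-/- Tlr7-/- libraries. Cebpa ranged over 79.3–144.6 RPM among WT libraries and 62.7–79.0 RPM among Slc29a3-/- libraries, with no overlap by less than 1 RPM and a difference of −0.69 (adjusted P = 0.073).

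Nr4a1 in Ly6Clow monocytes was at 1418 RPM in WT replicate 4 and 4421, 5028, and 5241 RPM in the others. It was at 1831–2378 in Slc29a3-/- and at 2074, 2337, 2777, and 5820 RPM in Slc29a3-/- Tlr7-/-. The WT libraries lay both above and below the Slc29a3-/- range, and the difference was −0.82 (SE 0.39, adjusted P = 0.26). Without WT replicate 4, 5 factors were called in Slc29a3-/-: Nr4a1 (−1.26, adjusted P = 0.011), Cebpa (−0.87, adjusted P = 0.0083), Cebpb (−0.83, adjusted P = 0.041), Klf2 (−0.68, adjusted P = 0.012), and Pou2f2 (1.02, adjusted P = 0.0036). Without it, Cebpa, Klf2, and Pou2f2 were called in Slc29a3-/- Tlr7-/-. Calls over all 10241 genes of these fits also rose, to 795 higher and 601 lower in Slc29a3-/- and 875 higher and 905 lower in Slc29a3-/- Tlr7-/-. Klf4, Irf8, and Spi1 were not called with any 1 library left out. Their differences from WT were between −0.42 and −0.07. With WT replicates 1 to 3 averaged, no factor was called in a mutant, but few genes were called at all. Of 10183 genes, 42 were called higher and 23 lower in Slc29a3-/-, and 5 higher and 1 lower in Slc29a3-/- Tlr7-/-. Against replicate 4 alone, Nr4a1 was 0.52 and Cebpb was 1.10 higher in Slc29a3-/- (adjusted P of 0.82 and 0.46), the opposite direction to that without this library.

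Cebpe and Gfi1 were near the limit of detection in Ly6Clow monocytes. Summed over the 4 libraries of a group, Cebpe had 27 reads in WT, 6 in Slc29a3-/-, and 4 in Slc29a3-/- Tlr7-/-, and Gfi1 had 72, 13, and 3. In Ly6Chi monocytes the groups held 735–3202 reads of Cebpe and 1067–3981 reads of Gfi1. No fold is given between genotypes at these levels. The neutrophil sum in Ly6Clow libraries moved the same way, at 74.8–2535 RPM among WT, 38.4–206.5 RPM among Slc29a3-/-, and 5.64–57.0 RPM among Slc29a3-/- Tlr7-/- libraries, in which Ly6g was at 0.

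Between the subsets most of the factors differed in every genotype. Higher in Ly6Clow monocytes of all 3 genotypes were Nr4a1, Cebpb, and Pou2f2, and lower were Cebpa, Cebpe, and Gfi1. In WT, 4 of the 10 were called higher and 4 lower, against 8.46% and 17.5% of all 11042 genes. In Slc29a3-/- 5 were higher and 3 lower (18.5% and 16.5% of all genes), and in Slc29a3-/- Tlr7-/- 5 were higher and 4 lower (9.64% and 18.7%). Cebpe and Gfi1 passed the filter on low values only through Ly6Chi libraries, so their presence among the lower calls was fixed by that subset. Without both, 2, 1, and 2 factors were lower. Nr4a1 was at 381 ± 172, 839.9 ± 441, and 1444 ± 690.2 RPM in Ly6Chi Slc29a3-/-, Slc29a3-/- Tlr7-/-, and WT (mean ± SD, n = 4). In Ly6Clow monocytes it was at 2046 ± 260.3, 3252 ± 1736, and 4027 ± 1773 RPM, in the same order of genotypes. No library overlapped between the subsets in either mutant, and in WT the Ly6Clow replicate 4 (1418 RPM) lay below 3 of the Ly6Chi libraries. The rise was 1.53 in WT (adjusted P = 0.016), 2.55 in Slc29a3-/- (adjusted P = 0.00011), and 1.95 in Slc29a3-/- Tlr7-/- (adjusted P = 0.0024).

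The WT values of Nr4a1 and Cebpb depended on the libraries. The rise of Nr4a1 in WT was called with 5 of the 8 libraries left out in turn and that of Cebpb (1.13, adjusted P = 0.026) with 3 of 8. With WT replicates 1 to 3 averaged, Nr4a1 and Cebpb were not called (adjusted P of 0.13 and 0.35), nor was Irf8 (adjusted P = 0.055). The deviations of same-numbered WT libraries correlated between the subsets, but the same number was the best match only for numbers 1 and 4. With the number as a block Nr4a1, Cebpb, and also Klf4 (0.71, adjusted P = 0.022) were called, 9 of 10. Cebpb rose by 1.51 in Slc29a3-/- (adjusted P = 0.0023) and 1.31 in Slc29a3-/- Tlr7-/- (adjusted P = 0.0091).

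The Klf factors rose in the mutants. Klf4 was 1.83 higher in Ly6Clow than in Ly6Chi monocytes of Slc29a3-/- (adjusted P = 0.00026) and 1.78 higher in Slc29a3-/- Tlr7-/- (adjusted P = 0.00052). Klf2 was 1.49 higher (adjusted P = 0.00011) and 0.75 higher (adjusted P = 0.04). The latter call was lost with no filter (adjusted P = 0.093) and in 5 of the 8 fits with 1 library left out, those without Ly6Chi replicate 3 or 4 or Ly6Clow replicate 1, 3, or 4 (adjusted P up to 0.11). In WT the differences were 0.71 for Klf4 (adjusted P = 0.16) and 0.58 for Klf2 (adjusted P = 0.12). Pou2f2 rose by 1.47, 2.38, and 1.71 in WT, Slc29a3-/-, and Slc29a3-/- Tlr7-/- (adjusted P of 0.00018 or less), with no overlap of libraries in any genotype. Spi1 was higher without overlap in all 3 genotypes, by 0.67 in WT (adjusted P = 1.7e-05), 0.53 in Slc29a3-/-, and 0.52 in Slc29a3-/- Tlr7-/-, of which the mutant values are folds of 1.44 and 1.43 and so were under the fold threshold.

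Irf8 and Cebpa were the members that fell with substantial reads in both subsets. Cebpa fell by 1.35, 0.96, and 1.60 in WT, Slc29a3-/-, and Slc29a3-/- Tlr7-/- (adjusted P of 0.00078 or less). Irf8 fell by 1.31 in WT (adjusted P = 0.00023) and 0.94 in Slc29a3-/- Tlr7-/- (adjusted P = 0.0052), and its difference in Slc29a3-/- was −0.11 (adjusted P = 0.76). The Ly6Clow libraries held 148.7, 266.4, 268.0, and 414.2 RPM of Irf8 (WT), 200.2–240.5 RPM (Slc29a3-/-), and 166.3–386.6 RPM (Slc29a3-/- Tlr7-/-). The Ly6Chi Slc29a3-/- libraries, at 178.9–322.6 RPM, thus overlapped all Ly6Clow groups.

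**Figure D5:**
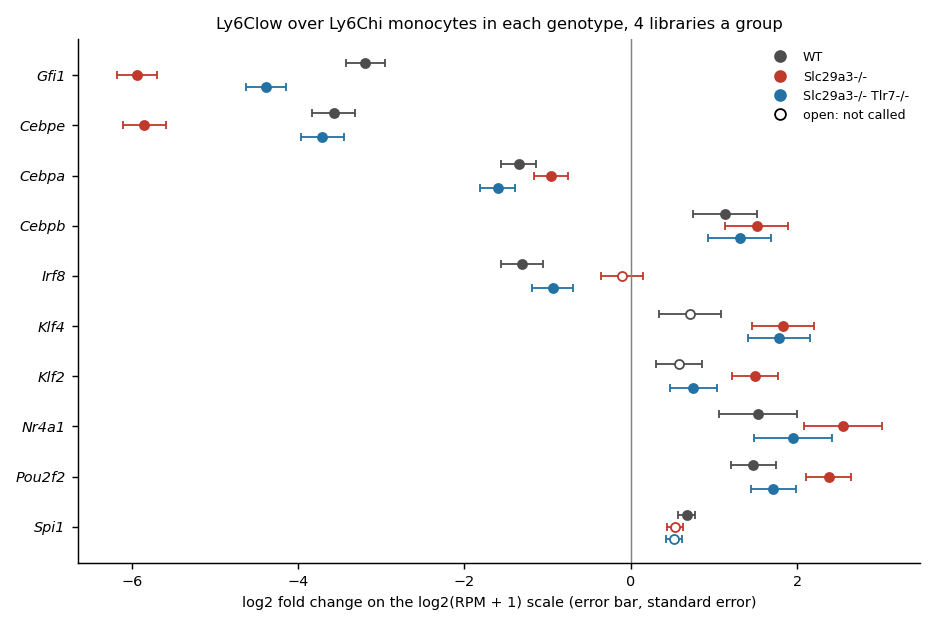
Log2 fold change of each factor between Ly6Clow and Ly6Chi monocytes (horizontal axis, with standard error) in WT, Slc29a3-/-, and Slc29a3-/- Tlr7-/-, 4 libraries a group, with filled points for calls. Gfi1 and Cebpe are at the far left in every genotype, on values that depend on the pseudocount, and Irf8 is at −1.31 in WT and −0.11 in Slc29a3-/-.

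An interaction fitted over all 24 libraries asked whether a genotype acted alike in Ly6Chi and Ly6Clow monocytes. For Slc29a3-/- against WT, 3 factors were called (Gfi1, Cebpe, and Irf8) and 8.76% of all genes. For Slc29a3-/- against Slc29a3-/- Tlr7-/-, Gfi1 and Cebpe were called, with 8.94% of all genes, and neither was called at a pseudocount of 0.1. Because Gfi1 and Cebpe passed the filter only through Ly6Chi libraries and their Ly6Clow genotype folds rest on the few reads given above, no interaction value is given for them. For Irf8 the effect in Ly6Clow minus that in Ly6Chi monocytes was 1.20 (adjusted P = 0.034). This call was kept in 5 of the 16 fits with 1 library left out (adjusted P up to 0.088), those without Ly6Chi WT replicate 4, Ly6Chi Slc29a3-/- replicate 1 or 2, Ly6Clow WT replicate 4, or Ly6Clow Slc29a3-/- replicate 2. It was lost with no filter (adjusted P = 0.08) and with WT replicates 1 to 3 averaged (adjusted P = 0.35).

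For Nr4a1, Klf2, and Klf4 the interaction against WT was 1.01, 0.91, and 1.13 and was not called (adjusted P of 0.4, 0.16, and 0.2). With the replicate number as a block, all 3 were called (adjusted P of 0.027, 0.024, and 0.032). That block takes the numbers to match between the subsets, which the deviations bore out only in part. Klf4 was also called with WT replicate 4 of both subsets left out (1.38, adjusted P = 0.035), and Klf2 and Klf4 without Ly6Chi WT replicate 4 (adjusted P of 0.05 and 0.018). With WT replicate 4 as the single WT library, few genes of any kind passed, so that fit says little of the factors.

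Over all 6 groups, the mean level of Nr4a1, Cebpb, Klf4, Spi1, and Pou2f2 was higher in each Ly6Clow group than in any Ly6Chi group. Between neighbors in this order, Klf4 in Ly6Chi WT (432 ± 194 RPM) and Ly6Clow Slc29a3-/- (476 ± 112 RPM) did not differ beyond their spread. For Klf2 the Ly6Clow Slc29a3-/- Tlr7-/- mean (677 ± 126 RPM) and the Ly6Chi WT mean (688 ± 202 RPM) did not differ beyond their spread. Cebpa had the reverse order, from 71.1 ± 6.79 RPM in Ly6Clow Slc29a3-/- to 300.1 ± 61.4 RPM in Ly6Chi WT. Irf8 in Ly6Chi WT (640.2 ± 44.4 RPM) stood above every other group without overlap, and the 3 Ly6Clow groups and Ly6Chi Slc29a3-/- (218.9–274.3 RPM as means) overlapped. Spi1 was highest in Ly6Clow WT (1492 ± 62.9 RPM), above both mutant Ly6Clow groups without overlap, though by differences of −0.16 and −0.17 that were not called.

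Relatives of the 10 factors were followed as a list of 31 C/EBP, Gfi, Klf, Irf, Ets, Nr4a, and Pou genes, 28 of which were tested in Ly6Chi monocytes. Between Slc29a3-/- and WT, 13 were lower and 2 were higher, against 14.3% and 8.15% of all genes. The median was −0.69, against −0.14 over all genes. As counts, these calls rest on all WT libraries and are not given for other choices of WT libraries. Klf5, a Klf member of proliferating cells, spanned 17.5–20.2 RPM among WT, 59.6–98.5 RPM among Slc29a3-/-, and 5.04–24.4 RPM among Slc29a3-/- Tlr7-/- libraries. It rose by 1.95 over WT (adjusted P = 0.0011) and 2.42 over Slc29a3-/- Tlr7-/- (adjusted P = 0.00027), with no overlap. Fli1, an Ets factor of stem cells and megakaryocytes, was the other. Lower in both comparisons were Irf1, Irf4, and Spib. Spib, a close relative of Spi1 expressed in plasmacytoid dendritic and B cells, had means of 17.6 ± 1.63, 7.38 ± 2.55, and 24.2 ± 3.48 RPM in the order WT, Slc29a3-/-, and Slc29a3-/- Tlr7-/- (−1.21, adjusted P = 0.0019, and −1.64, adjusted P = 0.00027).

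Among the Klf and Nr4a relatives lower than WT, several also differed between the WT libraries. Klf6 was at 308.0–1220 RPM over the WT libraries, 228.0–300.8 in Slc29a3-/-, and 321.5–360.5 RPM in Slc29a3-/- Tlr7-/-. Nr4a2 ranged over 0.858–15.1 RPM among WT and 0.553–0.796 RPM among Slc29a3-/- libraries. Cebpd, an acute-phase C/EBP member, was the 1 relative called in Ly6Chi Slc29a3-/- Tlr7-/- against WT (−1.28, adjusted P = 0.046), at 10.2–20.4 RPM against 21.8–53.6 RPM, and it was −0.98 in Slc29a3-/- (adjusted P = 0.02). In Ly6Clow monocytes Spic, the Ets factor of red pulp macrophages, was higher in Slc29a3-/- (34.1 ± 8.66 RPM) than in WT (12.2 ± 2.49 RPM) and Slc29a3-/- Tlr7-/- (12.7 ± 5.19 RPM), by 1.39 in each (adjusted P of 0.011 and 0.016). The sum of 6 red pulp macrophage genes, Spic among them, was 438.1–486.2, 506.4–733.5, and 242.8–1514 RPM, and its part in the Spic value was not tested. Klf11 and Klf13 were lower than WT in both mutants.

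Of 35 other factors of myeloid fate, 34 were tested in Ly6Chi monocytes. Between Slc29a3-/- and WT, 13 were lower and 0 were higher, against 14.3% and 8.15% of all genes. The median was −0.52, against −0.14 over all genes. These calls rest on all WT libraries, which were not alike, and are not given for other choices of WT libraries. Against Slc29a3-/- Tlr7-/-, 7 were lower and 2, Myb and Zeb1, were higher, with 17.2% of all genes called. Maf, a factor of macrophages, was at 72.8, 33.6, and 71.6 RPM as means of WT, Slc29a3-/-, and Slc29a3-/- Tlr7-/-. Tcf4, Batf3, and Zbtb46, which define dendritic cell lineages, were also lower than WT. Myb, a factor of proliferating progenitors, was at 129.8 ± 51.3 in Slc29a3-/- and 47.2 ± 6.02 RPM in Slc29a3-/- Tlr7-/- (1.36, adjusted P = 0.0053), with WT between them at 88.2 ± 28.9 RPM. Zeb1 was at 28.6 ± 7.64 RPM against 14.5 ± 5.91 RPM in the same comparison (adjusted P = 0.043).

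Of 4 receptor genes for colony-stimulating factors, known targets of Spi1 and Cebpa, 1 was lower in Ly6Chi Slc29a3-/- than in WT and another lower than in Slc29a3-/- Tlr7-/-. Csf1r, the receptor of M-CSF, was at 831.8 ± 108.8 RPM in Ly6Chi WT, 886.6 ± 309.6 in Slc29a3-/-, and 1468 ± 187.4 RPM in Slc29a3-/- Tlr7-/-. Slc29a3-/- differed by −0.81 from Slc29a3-/- Tlr7-/- (adjusted P = 0.028) and was not called against WT (0.01). Csf2ra, the alpha chain of the GM-CSF receptor, fell by 0.69 from WT (adjusted P = 0.0029), from 906.3 ± 149.0 to 556.2 ± 22.4 RPM. Csf3r, the receptor of G-CSF on neutrophils, was at 156.7 ± 9.79, 167.6 ± 31.6, and 185.5 ± 21.2 RPM and was not called, nor was Csf2rb.

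The genes most like each factor across the 12 Ly6Chi libraries were listed by Pearson r on the log2 scale, as a description in which the libraries share their genotype groups. For Nr4a1 they included Btg2 (r = 0.98) and Stk24 (0.954). Btg2 is among the 10 immediate early genes, and it was also among the 3 most like Klf4 (0.958), with Sstr4 (0.975) and Sgk1 (0.959). Sstr4 and Sgk1 recurred for Klf2 (0.963 and 0.957), beside Zfp36l2 (0.957). For Gfi1 they were Lmnb2 (0.989), Ptgs1 (0.989), and Adgrg3 (0.987), and for Cebpe Sept5 (0.986), Pglyrp1 (0.979), which encodes a granule protein of neutrophils, and Abhd5 (0.977). Irf8 was most like C1qb (0.979), Nr1d2 (0.978), and Tsga10 (0.975), and Cebpa most like Dyrk3 (0.968), Nlrp3 (0.965), and Eapp (0.965). Pou2f2 was most like Sumf1 (0.958), Mef2c (0.95), and Pttg1 (0.944). The highest values for Cebpb (Cyb5r3, 0.873, Eng, 0.87, and Metrnl, 0.86) and Spi1 (Ttc17, 0.83, Ankra2, 0.808, and Nek7, 0.803) were lower.

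Across the 12 Ly6Clow libraries the genes most like a factor were others. Nr4a1 was most like Ccl3 (0.96), a chemokine gene, Prrg2 (0.951), and Wrnip1 (0.932). Cebpb was most like Mcl1 (0.96), an anti-apoptotic gene, Lrrc8d (0.945), and Gpsm3 (0.943). Pou2f2 was most like Mettl7a1 (0.976), Hif1an (0.973), and Casp9 (0.972), and Cebpa was most like Rcsd1 (0.967), BC037034 (0.955), and Fance (0.953). For Klf2, Klf4, Irf8, and Spi1 the highest values were 0.912 (Midn), 0.894 (Kbtbd2), 0.897 (Hmgxb4), and 0.889 (4930526I15Rik and Mpv17l2).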

How the data were processed

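Transcripts of sorted splenic monocytes were measured with the Ion AmpliSeq Transcriptome mouse panel in 24 libraries, 4 in each of 6 groups assigned from the sample descriptions. The authors deposited 1 table of RPM values (reads per 1000000 reads of a library) for 23930 amplicons. The study's methods name Cutadapt, STAR on mm10, and HTSeq. Which step wrote the table is not stated. Date-like entries stood in place of 27 symbols and were repaired, and 21370 matched GENCODE vM21 (mm10). A value of 0.0001 stood for 0 reads and was set to 0. Read numbers were inferred from the step between values under 5 RPM, all of which were whole multiples within 0.1 read.

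The analysis had been planned for counts or RPM, and because the table holds RPM no count model was run. The filter kept amplicons that reached 1 RPM in 4 or more libraries. Genotypes were compared in the 12 libraries of a subset, and subsets and interactions in all 24 libraries as 6 groups, on log2(RPM + 1) in R 4.3.3 by limma 3.58.1 (linear fit per gene, moderated with an intensity trend). This log scale understates changes of low genes. Calls needed a fold over 1.5 and a two-sided Benjamini-Hochberg adjusted P under 0.05 over all genes kept, in each of 11 comparisons. The scripts were tested on simulated data. Named were all 10 members, any gene of the lists of relatives, other myeloid factors, and colony-stimulating factor receptors, a few fixed examples of the marker lists, and the 3 most alike genes (among genes with a mean of at least 10 RPM). A few genes that this rule names are not reported here. The members, lists, and examples were chosen with earlier results of these data known. Cell type lists were made for 10 cell types, beside immediate early and granule genes. Ly6c2, Apoc2, Cd79a, Trac, Hbb-bs, and Hba-a1 of these lists were not used here.

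No pair of libraries agreed within sampling noise. Over genes with 100 or more reads in a pair, the median chi-square per gene of the 36 pairs within groups was 1.86–41.1, and the lowest values were those of Ly6Chi WT replicates 1 to 3. This covers counting error only, and repeat preparations of 1 RNA could exceed it too, so whether these are separate samples cannot be told. They were kept apart and, as an alternative, averaged. Replicate numbers were checked for pairing by the correlation of deviations from the group means. Between the subsets of WT r was 0.26–0.61, but the same number was the best match only for numbers 1 and 4. Between those of Slc29a3-/- r was −0.1 to 0.19, with numbers 1, 2, and 4 best matched. Every other comparison held an r below 0 too. Replicate 3 of Slc29a3-/- Tlr7-/- held 108.7 RPM of Xist in Ly6Chi and 0 in Ly6Clow, so its number did not match in sex-linked reads. Alternatives were a pseudocount of 0.1, no filter or a mean of at least 10 RPM, TMM and RLE scaling, an unadjusted P, all 24 libraries in 1 fit, a replicate block, and each library left out. WT replicate 4 left out of both subsets and WT replicates 1 to 3 averaged were added after seeing the data.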

Additional observations from a re-analysis of the deposited data

Results flagged for a closer look

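Within the 60 sets of 4 libraries (10 factors in 6 groups), 6 held a library whose distance to its nearest neighbor, relative to the whole range, exceeded Dixon's 95% critical value. Chance gives about 1 in 20 such sets. In 5 of the 6 the library was WT replicate 4: in Ly6Chi monocytes Nr4a1 at 408.6 RPM (next 1765 RPM), Klf2 at 388.7 RPM (next 747.8 RPM), and Klf4 at 142.2 RPM (next 511.5 RPM) were lowest and Pou2f2 at 59.83 RPM (next 49.6 RPM) was highest, and in Ly6Clow monocytes Klf2 at 489.0 RPM (next 1202 RPM) was lowest. The sixth was Gfi1 in Ly6Clow Slc29a3-/- Tlr7-/- replicate 4, at 0.24 RPM or 3 reads, where the other libraries had 0.

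The effect of Slc29a3-/- against WT differed between the subsets, by limma's interaction test (Ly6Clow effect minus Ly6Chi effect), for Irf8 (1.20, adjusted P = 0.034). This call was lost with no filter, with WT replicates 1 to 3 averaged, and in most fits with 1 library left out. Of all genes, 8.76% passed the test. Gfi1 and Cebpe passed the same test, but their Ly6Clow groups had 3–72 reads in all, so no value is given for them.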

How the results depend on the processing

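Followed under each alternative were the 55 factor results that were called, or passed at an unadjusted P, in the main fit. Of their 995 values, 900 kept their direction and their side of the thresholds, 55 lost a call, 38 gained one, and 2 turned direction. Those 2 were Klf2 (0.032) and Klf4 (0.27) in Ly6Chi Slc29a3-/- Tlr7-/- against WT replicate 4 as the only WT library. Results outside this count turned too, such as Nr4a1 and Cebpb in Ly6Clow Slc29a3-/- against the same library. At an unadjusted P the outcome was fixed by how the 55 results were chosen: called results kept their call and the rest gained one. In Ly6Chi monocytes the 7 calls of Slc29a3-/- against WT became 1 with WT replicate 4 alone and 4 with WT replicates 1 to 3 averaged, and were 7–8 with 1 library left out. The 0 calls of Slc29a3-/- Tlr7-/- against WT became 2 at an unadjusted P, with 0–2 when 1 library was left out. In Ly6Clow monocytes the 0 calls of Slc29a3-/- against WT became 2 with all 24 libraries in 1 fit, 1 with no filter, 2 at an unadjusted P, and 0–5 with 1 library left out. Those of Slc29a3-/- Tlr7-/- against WT became 3 with all 24 libraries and 1, a lower call, with no filter. With TMM, RLE, or the replicate block Pou2f2 was called higher. There were 2 calls at an unadjusted P and 0–3 with 1 left out. In both comparisons the fits with all 24 libraries and with no filter tested 10 factors rather than 8. They took in Cebpe and Gfi1, which had few reads in Ly6Clow monocytes. The 8 calls between subsets in WT became 4 with replicate 4 alone and 5 with replicates 1 to 3 averaged (6–9 with 1 library left out). The interaction of Slc29a3-/- against WT (3 calls) became 6 with the replicate block, 6 at an unadjusted P, and 0 with WT replicate 4 alone (2–5 with 1 left out). That against Slc29a3-/- Tlr7-/- (2 calls) became 0 at a pseudocount of 0.1 and 4 at an unadjusted P. The cause of these changes was not tested.

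Scaling moved the split of all calls by over 10 percentage points in 7 comparisons. In Ly6Chi monocytes it went from 861 higher and 1507 lower to 1147 and 1182 with RLE (Slc29a3-/- against WT), from 33 and 117 to 74 and 109 with TMM (Slc29a3-/- Tlr7-/- against WT), and from 951 and 868 to 1211 and 502 with TMM (Slc29a3-/- against Slc29a3-/- Tlr7-/-), where Cebpa was not called. In Ly6Clow Slc29a3-/- Tlr7-/- against WT it went from 235 and 622 to 441 and 458 with RLE. Between subsets of Slc29a3-/- Tlr7-/- it went from 1064 and 2063 to 1377 and 1733 with TMM, where Spi1 was called too. The interactions went from 513 and 454 to 365 and 651 (against WT) and from 487 and 500 to 275 and 706 (against Slc29a3-/- Tlr7-/-), both with TMM. The replicate block changed no other call of a named comparison beyond those given. The planned quasi-likelihood count model on whole reads recovered from the RPM steps was not run.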

Other observations

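T cell and NK cell transcripts in the Ly6Chi libraries were lower in Slc29a3-/-. All 6 T cell genes and all 5 NK cell genes were called lower than in WT by limma, as were 14.3% of all genes. The T cell sum was 8.50–18.8 RPM, against 176.5–189.4 RPM in WT replicates 1 to 3 and 50.9 RPM in WT replicate 4. The NK cell sum was 21.1–41.8 RPM, against 428.6–471.8 RPM and 108.8 RPM in the same WT libraries. In Slc29a3-/- Tlr7-/- the sums were 18.5–107.7 RPM and 8.37–698.2 RPM. Of the B cell and erythroid lists 1 gene each passed the filter, Cd79b and Car1, and both were lower than in WT. The B cell sum was 14.9–20.9 RPM in Slc29a3-/- and 30.9–39.2 RPM in WT. The erythroid sum was 6.66–11.9 RPM in Slc29a3-/-, against 101.1–104.8 RPM in WT replicates 1 to 3 and 20.4 RPM in WT replicate 4. Of 8 granulocyte-monocyte progenitor genes, 5 were higher in Slc29a3-/- than in WT and 1, Flt3, was lower, against 8.15% and 14.3% of all genes.

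Among factors outside the 10, the subsets of WT monocytes differed in 14 of 35 other myeloid fate factors, 7 in each direction. Of all 11042 genes, 8.46% were called higher and 17.5% lower in Ly6Clow than in Ly6Chi WT monocytes. Bcl6, a repressor needed for Ly6Clow survival genes, was at 190.7 ± 60.4 RPM in Ly6Chi and 483.4 ± 37.1 RPM in Ly6Clow WT libraries (1.38, adjusted P = 2.7e-06), and Mef2c was at 35.1 ± 4.25 and 78.8 ± 17.6 RPM (1.12, adjusted P = 0.0039).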
